A study of Mus musculus with 6 samples.

Results

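The close homologue of L1 (Chl1), 5 contactins (Cntn1, Cntn3, Cntn4, Cntn5 and Cntn6) and 4 contactin-associated protein genes (Cntnap2, Cntnap4, Cntnap5a and Cntnap5b) were followed through nuclei of mouse brain taken from formalin-fixed paraffin-embedded (FFPE) blocks and from frozen tissue. These 10 genes were selected on their counts in the same tables, by treatment, batch and class, with earlier results in view. Which of those values decided for each gene is not recorded. The test values below therefore give each gene's place in a fit across the whole table, and no support is drawn from how many of the 10 were called. All 10 were present in every table, out of 19006 mouse genes in the SCRB-seq table, 21987 in the SMART-Seq2 well table, 21608 in the tables of plate-sorted nuclei, 23295 in the table that adds frozen nuclei and 19905 in the droplet table.

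The study isolated nuclei from FFPE scrolls of 50 µm of brain, labelled cortex (strain C57BL/6J, age 8 to 12 weeks), and asked how nuclei of such blocks can be profiled. Before rehydration in graded ethanol and lysis, paraffin was removed with heated mineral oil, with heated xylene or with xylene at room temperature. There were 6 labelled samples. In the bulk samples each well held a set number of sorted nuclei. SCRB-seq, which counts transcript 3′ ends, was run on 16 wells for each of the 3 FFPE treatments and on 16 wells of frozen nuclei, 8 with 10 nuclei and 8 with 100. SMART-Seq2, which reads along the transcript, was run on 3 wells for each FFPE treatment and 3 frozen wells, with 100, 50 and 10 nuclei. Single nuclei were profiled on plates with SMART-Seq2, 98 FFPE nuclei in batch 1 and 134 in batch 2, and on droplets, 7031 FFPE nuclei in 12 classes named in the deposited annotation. Frozen wells and 137 frozen plate nuclei stand in the deposited annotation tables and are named in no sample label. The labels give no animal, block or dissection for any group. All groups share strain and age as labelled, and none carries a genetic change in the labels. Wells of 1 group are wells of 1 sample, so p-values measure the spread between wells, which may be technical.

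Contactins are immunoglobulin-domain proteins tethered to the neuronal surface by a lipid anchor. They bind partner proteins on the same or a facing membrane, among them the transmembrane Cntnap proteins and receptor-type protein tyrosine phosphatases, during axon guidance, synapse formation and the ordering of myelinated axons. Chl1 belongs to the L1 family of transmembrane adhesion molecules, which act in neurite growth and in the placing of cortical neurons. Several of these genes are very long, and nuclei hold much unspliced RNA. The sources used here do not say whether intronic reads were counted.

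Of the 10 genes, 5 lie on mouse chromosome 6 (GRCm38, GENCODE annotation). Cntn3 (6:102162655-102573101, minus strand), Chl1 (6:103510586-103750211, plus strand), Cntn6 (6:104492790-104863406, plus strand) and Cntn4 (6:105677660-106699310, plus strand) follow each other with gaps of 937.5, 742.6 and 814.3 kb, and Cntnap2 (6:45059357-47304213, plus strand) spans 2245 kb farther up the chromosome. Cntn5 (9:9660891-10904775, minus strand) spans 1244 kb. Cntn1 lies at 15:92051165-92341967, Cntnap4 at 8:112570043-112882717, Cntnap5a at 1:115684756-116587323 and Cntnap5b at 1:99772765-100485942, all on the plus strand. In the annotation 52 other genes overlap 7 of the members. None of the 52 is protein-coding, and none is counted in the SCRB-seq, SMART-Seq2 well or droplet tables.

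The RefSeq table of GRCm38.p6 gave promoter windows of 250 bases upstream of an annotated start for 8 of the 10 genes, 13 windows in all. Cntnap4 and Cntnap5a had no entry. The sequences shown are those of the genes that differed between FFPE and frozen wells in at least 1 of the bulk fits and whose window overlaps no annotated exon. Each is 5′ to 3′ on the gene's strand, and capitals mark a motif match. The Cntn3 window (6:102464668-102464917, minus strand) and the Cntn4 window (6:106118515-106118764, plus strand) lie inside their gene models, ahead of internal starts. The Cntn5 window (9:10904776-10905025, minus strand) and the Cntnap5b window (1:99772151-99772400, plus strand) lie upstream of theirs.
Cntn3: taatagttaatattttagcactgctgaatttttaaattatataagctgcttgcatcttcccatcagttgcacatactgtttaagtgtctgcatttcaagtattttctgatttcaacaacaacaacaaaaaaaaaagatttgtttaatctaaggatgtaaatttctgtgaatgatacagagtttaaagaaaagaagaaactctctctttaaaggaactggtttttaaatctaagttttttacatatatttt
Cntn4: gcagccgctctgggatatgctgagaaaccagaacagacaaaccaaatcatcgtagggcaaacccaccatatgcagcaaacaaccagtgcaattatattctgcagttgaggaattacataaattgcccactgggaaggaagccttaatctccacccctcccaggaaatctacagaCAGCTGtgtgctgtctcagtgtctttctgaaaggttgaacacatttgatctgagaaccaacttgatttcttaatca
Cntn5: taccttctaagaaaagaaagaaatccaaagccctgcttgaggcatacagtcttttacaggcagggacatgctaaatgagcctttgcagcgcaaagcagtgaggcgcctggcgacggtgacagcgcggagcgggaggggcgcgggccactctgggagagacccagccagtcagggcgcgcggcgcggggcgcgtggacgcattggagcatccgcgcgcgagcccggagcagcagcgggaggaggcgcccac
Cntnap5b: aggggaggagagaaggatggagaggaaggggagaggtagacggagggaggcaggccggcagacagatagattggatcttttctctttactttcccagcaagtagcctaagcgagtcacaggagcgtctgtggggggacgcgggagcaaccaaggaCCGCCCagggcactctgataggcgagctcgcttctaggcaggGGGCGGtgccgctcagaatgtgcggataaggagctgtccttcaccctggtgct

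Searched on both strands were the GC box (GGGCGG), the TATA box (TATAAA) and the E-boxes CAGATG and CAGCTG, and none of these overlaps another. They are held by 32.7%, 12.4%, 14.4% and 13% of all 32851 RefSeq windows of this length. The Cntnap5b window holds 2 GC boxes and has a GC content of 60%. The Cntn4 window holds 1 CAGCTG and has a GC content of 44.4%. No match was found in the Cntn5 window, which is the richest of these in CpG with 24 and a GC content of 64.8%, or in the Cntn3 window, which has no CpG and a GC content of 26.4%. A further Cntn5 window (9:10904727-10904976), not shown because it overlaps an annotated exon, holds 1 GC box, 26 CpG and a GC content of 68.4%. A further Cntn4 window (6:106118692-106118941), left out for the same reason, holds no match. The median GC content of all windows is 52.4%. These matches describe letters only.

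Depth was uneven. Mouse counts per SCRB-seq well ran from 7512 to 105967 after mineral oil, 28953 to 147257 after heated xylene, 23015 to 128394 after room-temperature xylene and 17611 to 167144 in frozen wells, and the shallowest were the mineral oil wells of 10 nuclei (7512 to 20593). SMART-Seq2 wells held 270363 to 942966 counts. Levels are given as CPM, the mouse counts of a gene scaled to the same library total in every sample. The label cortex was checked with marker lists. Cortical excitatory neuron markers (6 of 6 in the table) summed to a mean of 1475 CPM in frozen SCRB-seq wells (983 to 1910) and to 484, 515 and 414 CPM after mineral oil, heated xylene and room-temperature xylene. Cerebellar granule neuron markers (6 of 7 in the table) summed to 28.6 CPM in frozen wells (0 to 101, 2 markers at 0) and to 2128, 1506 and 1083 CPM in the same order of FFPE treatments, with 284 CPM in the lowest FFPE well. The same lists gave 1481 CPM against 280, 259 and 216 CPM, and 83.0 CPM against 2790, 1558 and 2313 CPM, in SMART-Seq2 wells. General neuron markers summed to a mean of 16063 CPM in frozen SCRB-seq wells and to 4755, 7572 and 7182 CPM in FFPE wells, in the same order. Inhibitory neuron markers stood at 339 CPM against 526, 1164 and 772 CPM. In SMART-Seq2 wells these were 15011 against 10066, 9696 and 9680 CPM, and 956 against 874, 1851 and 1464 CPM. FFPE and frozen groups therefore differed in cell type markers beside every FFPE to frozen comparison that follows, and the part of this in each result was not tested. In bulk wells fewer nuclei of a type and less RNA per nucleus cannot be told apart.

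In SCRB-seq wells, Chl1, Cntn6 and Cntnap5b were higher and Cntn5, Cntnap5a and Cntn4 lower in FFPE than in frozen nuclei, and the calls of Cntn6 and Cntnap5b were lost under another scaling. The comparison asks how profiles of FFPE nuclei stand against those of frozen nuclei. Of 1478 genes tested, 58.0% were called at an adjusted p under 0.05, 30.2% higher and 27.7% lower in FFPE. Of the 10 genes, 9 passed the filter on low counts and 6 were called, 3 in each direction. A gene high in 1 group could pass this filter through that group's wells alone. The median log2 fold change was 0.33 over the 9 and 0.00 over all genes tested. FFPE and frozen wells overlapped for all 9, and 2.98% of all genes tested did not overlap. Pool and group cannot be told apart, because each treatment at each nuclei number was 1 index pool.

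Chl1 ranged from 0 to 834 CPM over the 48 FFPE wells, with a median of 192, and from 0 to 114 CPM over the 16 frozen wells, with a median of 69.3. The ranges overlapped at the bottom, but 35 of 48 FFPE wells lay above the highest frozen well and 47 above the frozen mean. Chl1 rose by 1.55 on the log2 scale (SE 0.29, adjusted p = 4.59e-06, edgeR quasi-likelihood test with Benjamini-Hochberg adjustment). The 3 frozen wells at 0 held 10 nuclei each. In frozen wells of 10 nuclei a count of 0 allows a level of up to 48.5 to 170 CPM, the value of 3 counts at each well's depth.

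Among the contactins, Cntn6, known from the synapses of cerebellar parallel fibres, ranged from 0 to 917 CPM in FFPE wells (median 168) and from 0 to 210 CPM in frozen wells (median 68.5). Its ranges overlapped, with 23 of 48 FFPE wells above the highest frozen well. It rose by 1.33 (SE 0.38, adjusted p = 0.00212, edgeR quasi-likelihood test with Benjamini-Hochberg adjustment).

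Cntn5, a contactin studied in the auditory pathway, ranged from 31.1 to 810 CPM in FFPE wells (median 279) and from 414 to 2704 CPM in frozen wells (median 986). All 48 FFPE wells lay below the frozen mean and 39 below the lowest frozen well. It fell by 1.82 on the log2 scale (SE 0.22, adjusted p = 3.92e-11, edgeR quasi-likelihood test with Benjamini-Hochberg adjustment).

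Cntn4, which acts in the guidance of olfactory axons, ranged from 0 to 1295 CPM in FFPE wells (median 331) and from 373 to 1136 CPM in frozen wells (median 575). Of the FFPE wells 44 lay below the frozen mean, 30 of them below the lowest frozen well, and 2 lay above the highest. Cntn4 fell by 0.71 on the log2 scale (SE 0.28, adjusted p = 0.0243, edgeR quasi-likelihood test with Benjamini-Hochberg adjustment). The call was lost with no filter on low counts (-0.64, adjusted p = 0.108) and in wells of 10 nuclei alone (-0.79, adjusted p = 0.0974).

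Cntn1, the partner of Cntnap1 beside the nodes of myelinated axons, ranged from 0 to 1744 CPM in FFPE wells (median 303) and from 26.6 to 703 CPM in frozen wells (median 317). Cntn3, a contactin of the same subgroup as Cntn4 to Cntn6, ranged from 0 to 670 CPM (median 201) against 106 to 426 CPM (median 246). Neither was called, and both pairs of groups overlapped over most of their range. The log2 difference was 0.33 for Cntn1 (SE 0.35, adjusted p = 0.436) and -0.20 for Cntn3 (SE 0.24, adjusted p = 0.472) in the edgeR quasi-likelihood test with Benjamini-Hochberg adjustment.

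Of the Cntnap genes, Cntnap5a and Cntnap5b, mouse copies of the CNTNAP5 gene, parted. Cntnap5a ranged from 0 to 375 CPM in FFPE wells (median 93.3) and from 133 to 825 CPM in frozen wells (median 427). Every FFPE well lay below the frozen mean, and 39 of 48 lay below the lowest frozen well. Cntnap5a did not pass the filter in fits of FFPE wells alone, so it was tested here through the frozen wells, where it was higher. It fell by 2.15 on the log2 scale (SE 0.25, adjusted p = 8.65e-12, edgeR quasi-likelihood test with Benjamini-Hochberg adjustment). That value gives its place in the fit only. Cntnap5b ranged from 217 to 1360 CPM (median 569) against 183 to 525 CPM (median 371), with 27 of 48 FFPE wells above the highest frozen well. Its log2 difference was 0.78 (SE 0.21, adjusted p = 0.00110, edgeR quasi-likelihood test with Benjamini-Hochberg adjustment), a rise that depended on the scaling.

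Cntnap2, which with Cntn2 gathers potassium channels along myelinated axons, ranged from 326 to 2807 CPM in FFPE wells (median 1122) and from 118 to 1617 CPM in frozen wells (median 1056). The ranges overlapped over most of their length, and Cntnap2 was not called (0.37, SE 0.20, adjusted p = 0.113, edgeR quasi-likelihood test with Benjamini-Hochberg adjustment). Cntnap4, found at synapses of inhibitory and dopaminergic neurons, was left out by the filter. It ranged from 0 to 563 CPM in FFPE wells (median 73.2), with counts in 41 of 48, and from 0 to 80.7 CPM in frozen wells (median 23.8), with counts in 11 of 16. In wells of 100 nuclei alone, where it passed the filter, its log2 difference was 1.87 (adjusted p = 0.00121, edgeR quasi-likelihood test with Benjamini-Hochberg adjustment).

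Scaling with DESeq2 size factors moved the median of all genes from 0.00 to -0.58 and the calls from 447 higher and 410 lower to 309 higher and 674 lower. Under that scaling Chl1 (0.97, adjusted p = 0.00212), Cntn5 (-2.47), Cntnap5a (-2.74) and Cntn4, again lower in FFPE, stayed called in the edgeR quasi-likelihood test with Benjamini-Hochberg adjustment. Cntn6 (0.76, adjusted p = 0.0810) and Cntnap5b (0.10, adjusted p = 0.611) were no longer called, Cntn3 was called lower (-0.81, adjusted p = 0.00269), and the differences of Cntn1 (-0.26) and Cntnap2 (-0.23) turned negative. Cntnap5b also missed the threshold in wells of 100 nuclei alone (0.38, adjusted p = 0.160).

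**Figure D1:**
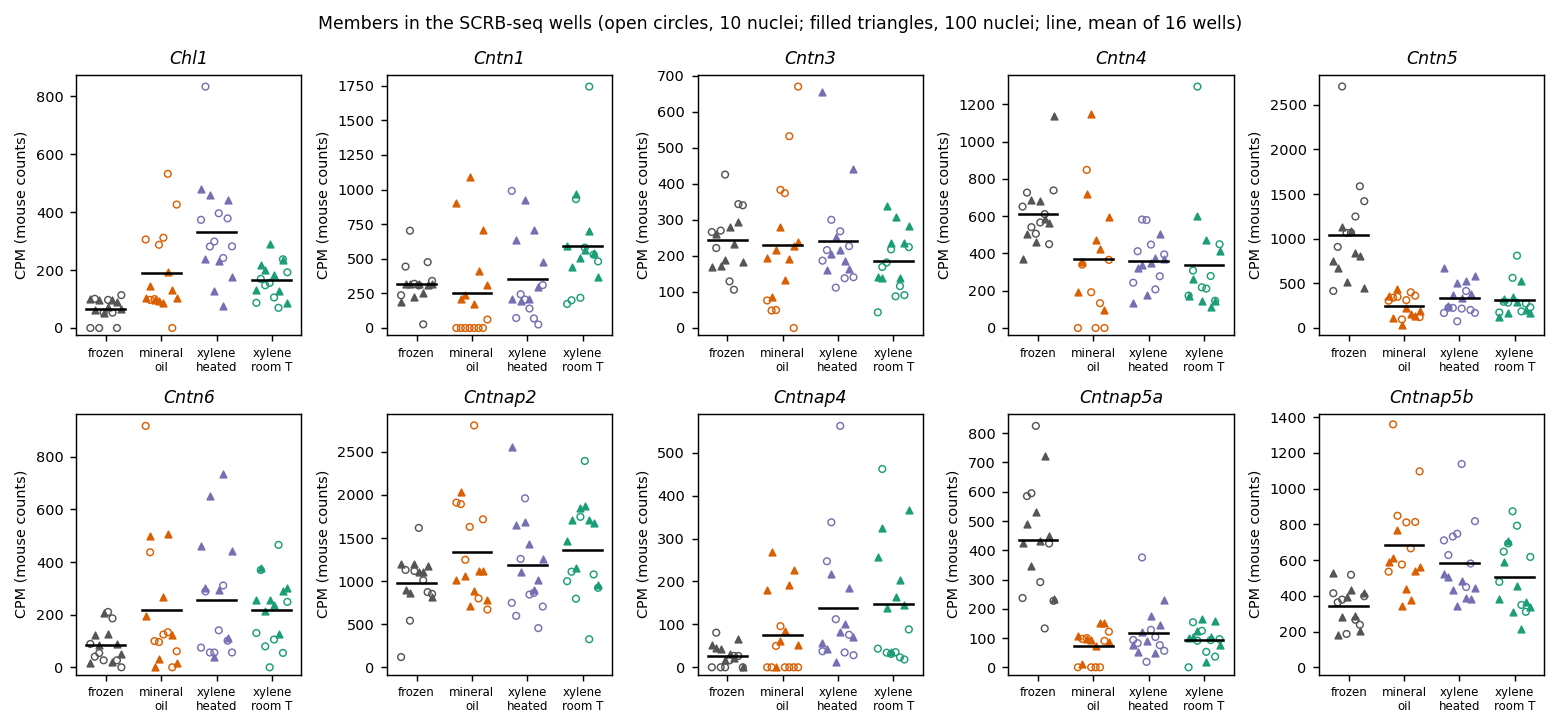
CPM of the 10 genes in each SCRB-seq well, by treatment, 1 point per well, with open circles for wells of 10 nuclei, filled triangles for wells of 100 and a line at the mean of 16 wells. Chl1 reached 834 CPM after heated xylene and at most 114 CPM in frozen wells, while 39 of 48 FFPE wells of Cntn5 and of Cntnap5a lay below the lowest frozen well.

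SMART-Seq2 wells showed the contactins Cntn3, Cntn4 and Cntn5 lower and Cntnap4 higher in FFPE than in frozen nuclei. All 10 genes were tested. Of 9092 genes tested, 4.09% were called, 1.45% higher and 2.64% lower in FFPE, and of the 10 genes 4 were called, 1 higher and 3 lower. The median log2 fold change was -0.92 over the 10 and -0.13 over all genes tested. Values are given in the order of 100, 50 and 10 nuclei per well.

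Chl1 stood at 2070, 1809 and 1073 CPM in frozen wells, at 2838, 5441 and 4191 CPM after mineral oil, at 874, 2212 and 3690 CPM after heated xylene and at 3797, 1798 and 4379 CPM after room-temperature xylene. Of the 9 FFPE wells 7 lay above the highest frozen well, and the heated xylene well of 100 nuclei lay below the lowest. The difference did not pass the test (0.71, SE 0.37, adjusted p = 0.399, edgeR quasi-likelihood test with Benjamini-Hochberg adjustment).

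Cntn3 stood at 581, 544 and 745 CPM in frozen wells, at 66.0, 49.7 and 1.95 CPM after mineral oil, at 104, 20.4 and 3.18 CPM after heated xylene and at 159, 65.3 and 0 CPM after room-temperature xylene. The groups did not overlap, as in 8.68% of all genes tested. Cntn3 fell by 3.96 on the log2 scale (SE 0.81, adjusted p = 0.00397, edgeR quasi-likelihood test with Benjamini-Hochberg adjustment), and its value lay between -4.54 and -3.65 with each well left out in turn, past the threshold each time. The well at 0 allows up to 6.09 CPM.

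Cntn4 stood at 714, 862 and 1292 CPM in frozen wells, at 136, 317 and 232 CPM after mineral oil, at 318, 205 and 17.0 CPM after heated xylene and at 220, 81.1 and 16.2 CPM after room-temperature xylene. Here too every FFPE well lay below every frozen well. Cntn4 fell by 2.84 on the log2 scale (SE 0.56, adjusted p = 0.00320, edgeR quasi-likelihood test with Benjamini-Hochberg adjustment). Without the frozen well of 10 nuclei the value was -2.46, with an adjusted p of 0.0587.

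Cntn5 stood at 709, 1258 and 789 CPM in frozen wells, at 74.0, 241 and 179 CPM after mineral oil, at 317, 1074 and 24.4 CPM after heated xylene and at 234, 196 and 124 CPM after room-temperature xylene. The heated xylene well of 50 nuclei fell within the frozen range, and the other 8 FFPE wells lay below it. Cntn5 fell by 2.16 on the log2 scale (SE 0.56, adjusted p = 0.0257, edgeR quasi-likelihood test with Benjamini-Hochberg adjustment). The call was lost without the frozen well of 100 nuclei (-2.19, adjusted p = 0.0629), of 50 nuclei (-1.84, adjusted p = 0.208) or of 10 nuclei (-2.18, adjusted p = 0.0869).

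Cntnap4 stood at 47.1, 163 and 44.9 CPM in frozen wells, at 524, 466 and 178 CPM after mineral oil, at 346, 366 and 533 CPM after heated xylene and at 410, 549 and 447 CPM after room-temperature xylene. Every FFPE well lay above every frozen well. Cntnap4 rose by 2.14 (SE 0.56, adjusted p = 0.0270, edgeR quasi-likelihood test with Benjamini-Hochberg adjustment). The call was lost without the frozen well of 100 nuclei (1.95, adjusted p = 0.220), without that of 10 nuclei (1.90, adjusted p = 0.221) and without the mineral oil well of 100 nuclei (2.05, adjusted p = 0.0522).

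The other contactins did not pass the test. Cntn6 stood at 251, 429 and 396 CPM in frozen wells, at 1361, 729 and 1746 CPM after mineral oil, at 694, 636 and 340 CPM after heated xylene and at 505, 868 and 459 CPM after room-temperature xylene. Of its 9 FFPE wells 8 lay above the highest frozen well, the exception being heated xylene at 10 nuclei (0.84, SE 0.40, adjusted p = 0.331, edgeR quasi-likelihood test with Benjamini-Hochberg adjustment). Cntn1 ranged from 431 to 898 CPM in FFPE wells and from 381 to 453 CPM in frozen wells (0.56, SE 0.37, adjusted p = 0.546, same test).

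Cntnap5a ranged from 1.06 to 642 CPM in FFPE wells (median 175) and stood at 504, 703 and 538 CPM in frozen wells. The room-temperature xylene well of 10 nuclei reached 642 CPM and the other 8 FFPE wells lay below the frozen range. The difference of -1.96 (SE 0.83) had an adjusted p of 0.240, and without that well it was -2.92 with an adjusted p of 0.0150 (edgeR quasi-likelihood test with Benjamini-Hochberg adjustment).

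Cntnap5b ranged from 1.95 to 155 CPM in FFPE wells and from 125 to 231 CPM in frozen wells, with 7 of 9 FFPE wells below the lowest frozen well (-1.92, SE 0.77, adjusted p = 0.209, edgeR quasi-likelihood test with Benjamini-Hochberg adjustment). Cntnap2 ranged from 1353 to 2168 CPM in FFPE wells, inside the frozen range of 887 to 2216 CPM (0.08, SE 0.28, adjusted p = 0.946, same test). With each well left out in turn, between 1 and 5 of the 10 genes were called, the lowest without the frozen well of 10 nuclei (162 of 9864 genes called), 2 without that of 100 nuclei (174 of 10267) and the highest (469 of 10248) when the well of 10 nuclei after room-temperature xylene was left out.

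**Figure D2:**
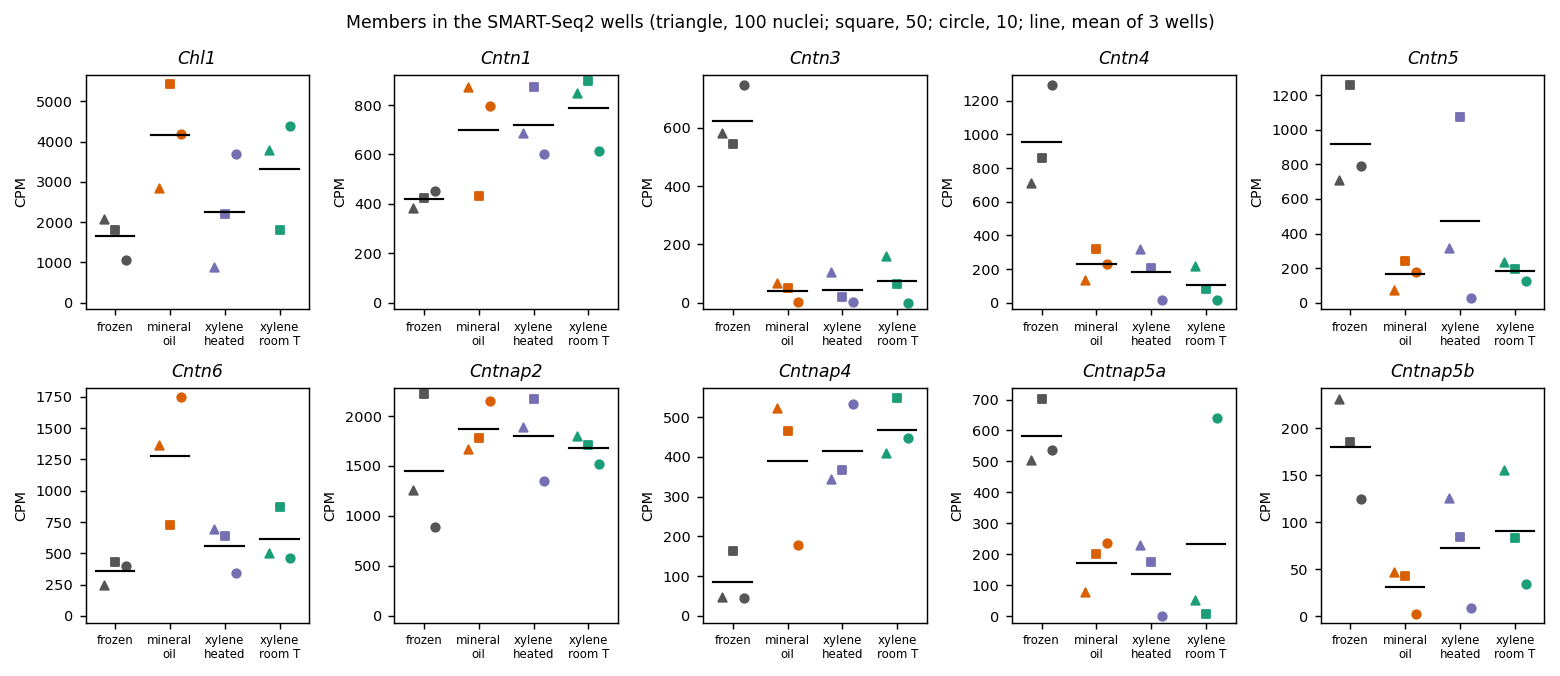
CPM of the 10 genes in each of the 12 SMART-Seq2 wells, by treatment, with triangles for 100 nuclei, squares for 50, circles for 10 and a line at the mean of 3 wells. Cntn3, Cntn4 and Cntnap4 are the genes whose 9 FFPE wells did not overlap the 3 frozen wells.

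Set side by side, the chemistries gave Cntn5 as lower in FFPE in both fits (-1.82 and -2.16 in SCRB-seq and SMART-Seq2) and Cntn4 likewise (-0.71 and -2.84). Cntnap5b stood at 0.78 in SCRB-seq and -1.92 in SMART-Seq2, and Cntn3 at -0.20 and -3.96. The difference between chemistries was not tested.

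**Figure D3:**
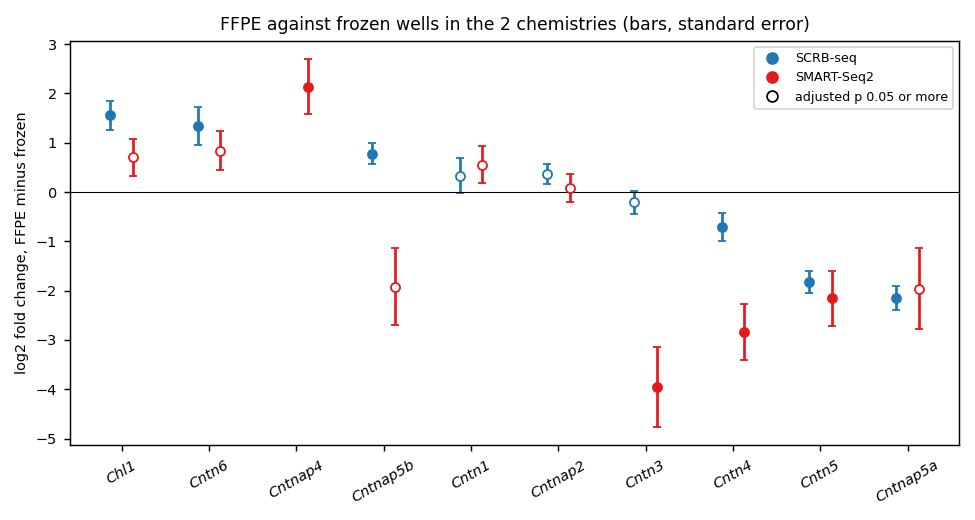
Log2 fold change of FFPE over frozen wells for each of the 10 genes in SCRB-seq and SMART-Seq2, from edgeR, with bars of 1 standard error and open symbols where the adjusted p was 0.05 or more; Cntnap4 was not tested in SCRB-seq. Cntn5 and Cntn4 lie below 0 in both chemistries and Cntnap5b lies on opposite sides; with DESeq2 size factors the SCRB-seq values of Cntn1 and Cntnap2 fall to -0.26 and -0.23.

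Scaled for length, levels between genes were compared only in SMART-Seq2 wells, as CPM per kilobase of exon. Chl1 had the highest mean in FFPE wells, 264 ± 117 CPM per kb (SD, n = 9), followed by Cntnap2 at 174 ± 26.0 and Cntn6 at 126 ± 70.3, and the spreads of these 3 overlap. Next came Cntn1 at 78.1 ± 17.2, Cntnap4 at 67.5 ± 18.7 and Cntn5 at 60.4 ± 69.1, whose spreads overlap. The lowest were Cntn4 at 20.2 ± 13.7, Cntnap5a at 16.4 ± 18.0, Cntnap5b at 12.4 ± 9.92 and Cntn3 at 7.75 ± 7.98, again within each other's spread.

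In frozen wells the order began with Cntn5 at 203 ± 65.4 CPM per kb (SD, n = 3), Cntnap2 at 142 ± 66.9, Chl1 at 134 ± 42.1 and Cntn4 at 113 ± 35.4, neighbours within their spread. Cntn3 followed at 92.6 ± 15.9, then Cntn6 at 55.2 ± 14.6, Cntnap5a at 53.1 ± 9.74 and Cntn1 at 44.5 ± 3.84. Cntnap5b (34.6 ± 10.3) and Cntnap4 (13.5 ± 10.7) were last. Cntn3 thus stood last of the 10 in FFPE wells and the fifth in frozen wells. If introns were counted, exon length does not scale a gene's level fully.

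The FFPE to frozen difference was then compared between wells of 10 and of 100 nuclei in SCRB-seq. In that test 16.6% of 2511 genes were called, 2.03% with a higher and 14.6% with a lower difference at 10 nuclei, and of the 10 genes Cntn1 alone. The median over all genes was -0.53 on the log2 scale. Cntn1 was lower in FFPE at 10 nuclei (-1.48) and higher at 100 nuclei (0.68), a difference of -2.16 (SE 0.63, adjusted p = 0.0131, edgeR quasi-likelihood test with Benjamini-Hochberg adjustment). By group, the mean level at 10 and at 100 nuclei was 7.61 and 505 CPM after mineral oil, 257 and 458 CPM after heated xylene, 607 and 585 CPM after room-temperature xylene and 357 and 281 CPM in frozen wells. The mineral oil wells of 10 nuclei held 1 Cntn1 count in 1 of 8 wells, which pooled to 8.68 CPM (exact Poisson 95% interval 0.220 to 48.4). Pooled mineral oil wells of 100 nuclei stood at 475 CPM (420 to 535). Without the mineral oil wells the Cntn1 difference was -0.35 (adjusted p = 0.797) and none of the 10 genes was called, while 58 genes were called higher and 65 lower and the median over all genes was 0.01.

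The deparaffinization treatments were compared in the FFPE wells alone, which is the comparison the bulk labels name. Between mineral oil and heated xylene 8.52% of 1080 genes were called, 1.57% higher and 6.94% lower after mineral oil, and of 8 members tested Chl1 was called. Chl1 ranged from 0 to 532 CPM after mineral oil (median 119), from 74.9 to 834 CPM after heated xylene (median 290) and from 69.8 to 291 CPM after room-temperature xylene (median 163). The 3 ranges overlapped. Chl1 was lower after mineral oil than after heated xylene by a log2 difference of -1.06 (SE 0.32, adjusted p = 0.0257, edgeR quasi-likelihood test with Benjamini-Hochberg adjustment). In wells of 10 nuclei alone it was -0.85 with an adjusted p of 0.168.

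Between heated and room-temperature xylene 1.94% of genes were called (1.02% higher and 0.926% lower after heated xylene) and none of the 8 members, while 176 of the 1080 genes had an unadjusted p under 0.05. Chl1 was the nearest (0.96, SE 0.30, adjusted p = 0.0853, edgeR quasi-likelihood test with Benjamini-Hochberg adjustment). It passed with nuclei number as a covariate (0.92, adjusted p = 0.0440) and without wells under 20000 counts (0.99, adjusted p = 0.0175).

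Between mineral oil and room-temperature xylene 10.3% of genes were called (2.50% higher and 7.78% lower after mineral oil) and again no member, while 249 genes had an unadjusted p under 0.05. Chl1 differed by -0.09 (SE 0.32) and Cntn1 by -1.12 (SE 0.48, adjusted p = 0.129, edgeR quasi-likelihood test with Benjamini-Hochberg adjustment). With nuclei number as a covariate Cntn1 fell by 1.57 on the log2 scale (adjusted p = 0.0201). Oligodendrocyte markers (6 of 6 in the table) summed to a mean of 455 CPM after mineral oil, 2305 after heated xylene and 2618 after room-temperature xylene, and the part of this in the treatment differences was not tested.

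In SMART-Seq2 wells no gene of 8372 (0%) was called between any 2 treatments, members included, in the edgeR quasi-likelihood test with Benjamini-Hochberg adjustment. Unadjusted p-values under 0.05 were found for 314, 199 and 379 genes (mineral oil to heated xylene, heated to room-temperature xylene, mineral oil to room-temperature xylene), and DESeq2 called 20, 1 and 26. Chl1, lower after mineral oil than after heated xylene in SCRB-seq, had the opposite sign here (0.82, SE 0.42, unadjusted p = 0.0604, adjusted p = 1.00, edgeR quasi-likelihood test with Benjamini-Hochberg adjustment). Between heated and room-temperature xylene its value was -0.43 (SE 0.41) here and 0.96 in SCRB-seq. Of the members Cntn6 had the lowest unadjusted p between treatments. It was higher after mineral oil by 1.22 than after heated xylene (SE 0.48) and by 1.17 than after room-temperature xylene (SE 0.48), with unadjusted p-values of 0.0169 and 0.0210 and adjusted p-values of 1.00 (edgeR quasi-likelihood test with Benjamini-Hochberg adjustment).

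The rest of the 3 families and their known partners were taken from fixed lists. Of 7 further family genes 3 were tested in SCRB-seq. Cntn2, which joins Cntnap2 beside the nodes of myelinated axons, rose from a mean of 45.9 CPM in frozen wells to 156 CPM in FFPE wells (1.60, SE 0.40, adjusted p = 3.64e-04, edgeR quasi-likelihood test with Benjamini-Hochberg adjustment). Nrcam, an L1-family relative of Chl1, fell from 433 to 182 CPM (-1.33, SE 0.29, adjusted p = 5.38e-05, same test). Nfasc, the L1-family protein of the node and its flanks, was at 280 and 303 CPM and was not called. The 4 that did not pass the filter had means of 29.4 and 81.3 CPM (Cntnap1), 9.21 and 22.2 CPM (Cntnap3), 82.5 and 62.7 CPM (Cntnap5c) and 69.1 and 40.1 CPM (L1cam) in frozen and FFPE wells.

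In SMART-Seq2 all 7 were tested and Nfasc alone was called, where 4.09% of all genes tested were. It fell from 624 ± 38.8 CPM (SD, n = 3) in frozen wells to 220 ± 118 CPM (SD, n = 9) in FFPE wells (-1.78, SE 0.51, adjusted p = 0.0480, edgeR quasi-likelihood test with Benjamini-Hochberg adjustment). Cntn2 stood at 23.6 and 178 CPM and was not called (2.53, adjusted p = 0.149, same test). Frozen and FFPE means of the others were 714 and 486 CPM for Nrcam, 62.8 and 73.2 CPM for Cntnap1, 19.4 and 39.2 CPM for Cntnap3, 82.2 and 28.8 CPM for Cntnap5c and 44.7 and 33.9 CPM for L1cam.

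Of 14 partner genes 6 were tested in SCRB-seq, and of these 2 rose, 2 fell and 2 did not pass, so that 4 of 6 were called where 58.0% of all genes tested were. Ptprz1, the phosphatase that binds Cntn1, rose from 60.8 to 230 CPM (1.72, adjusted p = 3.62e-04, edgeR quasi-likelihood test with Benjamini-Hochberg adjustment). Epb41l3, a membrane scaffold that binds Cntnap proteins, rose from 258 to 514 CPM (0.98, adjusted p = 9.43e-04, same test). Ptprg, the phosphatase that binds Cntn3 to Cntn6, fell from 356 to 180 CPM (-1.11, adjusted p = 9.33e-04, same test). Tnr, a matrix protein that binds Cntn1, fell from 453 to 288 CPM (-0.67, adjusted p = 0.0328, same test). App (-0.03) and Adam22 (0.14) were not called. All 14 were tested in SMART-Seq2 and none was called, where 4.09% of all genes tested were.

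Among the FFPE treatments in SCRB-seq, Nrcam (-1.40, SE 0.44, adjusted p = 0.0328) and Epb41l3 (-0.92, SE 0.31, adjusted p = 0.0495) were lower after mineral oil than after heated xylene in the edgeR quasi-likelihood test with Benjamini-Hochberg adjustment. Ptprg was lower after mineral oil than after room-temperature xylene (-1.87, SE 0.47, adjusted p = 0.00561, same test). The FFPE means of these 3 genes therefore pool treatments that differ.

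Single nuclei on plates are nuclei of 1 sample per batch, so their values carry no test. Chl1 was far higher on 1 plate of batch 1 than on any other. Its pooled level in batch 1 was 17612 CPM, the second of 21608 genes by CPM not scaled for length, and in batch 2 it was 590 CPM, at place 220. By plate it stood at 20284 CPM on MB18 (70 nuclei), 2874 CPM on MB17 (28 nuclei), 537 CPM on MB14 and 638 CPM on MB16 (67 nuclei each), against 117 and 164 CPM on the frozen plates (69 and 68 nuclei). Plate MB18 stood apart from every other plate. The median nucleus held 19114 CPM there, 259, 158 and 381 CPM on the other FFPE plates, and 38.5 and 48.5 CPM on the frozen plates. Batch 1 without MB18 is MB17 alone, where 1 nucleus supplied 54.9% of Chl1 counts.

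On each FFPE plate the gene whose counts were most like those of Chl1 was the predicted gene Gm10801, named after its values were seen. On MB18 Gm10801 took 112476 CPM and was detected in 70 of 70 nuclei, and the 2 genes correlated over nuclei at r = 0.985 (log2 of CPM + 10). The next most alike of 6385 genes there, Pcdh15, reached 0.432, and the 9 other members had r with Gm10801 from -0.31 to 0.27. Chl1 counts were 18.0% of Gm10801 counts on MB18, 17.0% on MB17, 37.2% on MB14 and 8.27% on MB16, and 17.6% and 15.1% on the frozen plates. Nuclei of 1 plate share library preparation and sequencing, and these correlations are descriptions.

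The r between Chl1 and Gm10801 was 0.753, 0.777 and 0.761 on MB17, MB14 and MB16 and 0.547 and 0.510 on the frozen plates. Other genes were closer there, Exoc6b at 0.655 on the first and Diaph2 at 0.635 on the second. Over all 137 frozen nuclei Gm10801 was the closest of 11107 genes at 0.533, ahead of Lpp at 0.515. In the 9 deep FFPE nuclei described further on Lsamp was closest at 0.986, and Gm10801 stood at 0.910. Gm10801 shares 0 words of 31 bases with the 6 annotated Chl1 transcripts. That search did not cover Chl1 introns or shorter matches, so it cannot tell whether reads were shared between both genes. In SMART-Seq2 wells it ran from 5881 to 13449 CPM in frozen nuclei and from 1783 to 14166 CPM in FFPE nuclei, and in SCRB-seq wells from 0 to 170 CPM and from 0 to 772 CPM. The part of Gm10801 in the Chl1 levels was not tested.

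**Figure D4:**
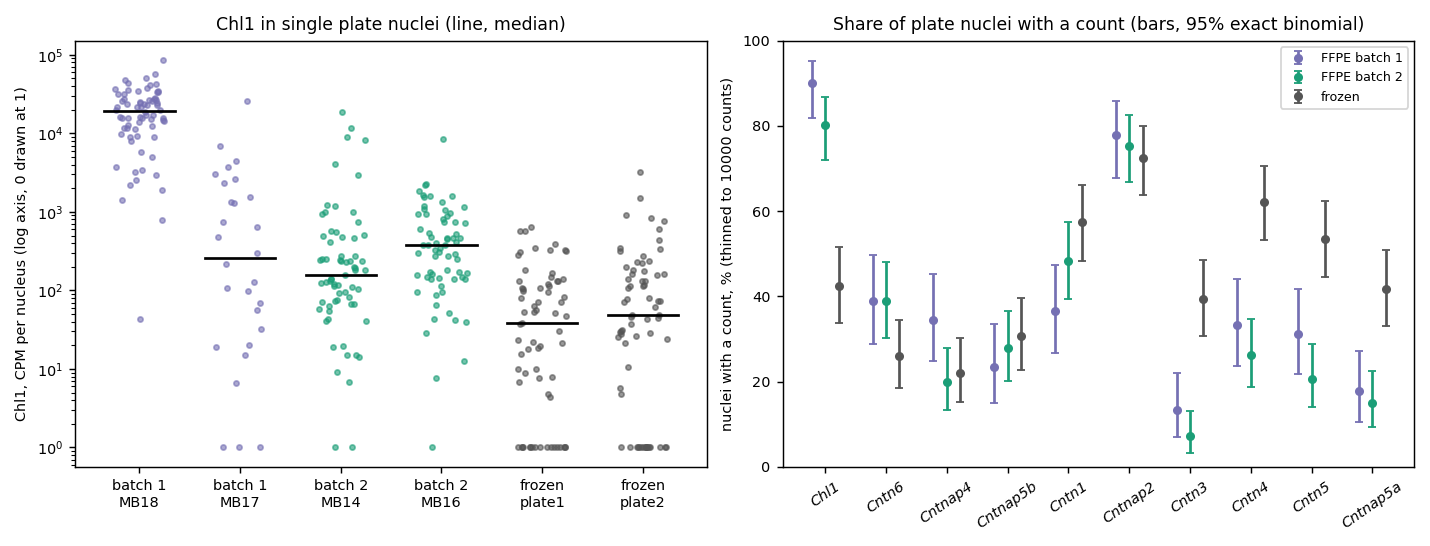
Left, CPM of Chl1 in each plate nucleus by plate on a log axis, with 0 drawn at 1 and lines at the medians; right, percent of nuclei with a count of each gene after thinning to 10000 counts, with exact binomial 95% intervals, for FFPE batch 1, FFPE batch 2 and frozen nuclei. The Chl1 median of MB18 is 19114 CPM, above every other plate's, and the share with a Cntn4 count is 33.3% and 26.2% in the FFPE batches against 62.2% in frozen nuclei.

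Between batches, 5 of the 10 genes were more than 2-fold higher in batch 1 in pooled CPM (Chl1, Cntn3, Cntn6, Cntnap4 and Cntnap5a) and none was more than 2-fold lower. Over 10436 genes with at least 10 CPM in either batch, 34.6% were more than 2-fold higher and 35.1% lower. By the mean of single-nucleus CPM Cntn3 was not among them. Without MB18 the Cntnap5a level of batch 1 was 39.8 CPM, that of MB17, against 49.7 CPM in batch 2, so its direction turned. In that setting, chosen after seeing the data, Cntn4 (708 against 157 CPM) and Cntn5 (2234 against 1027 CPM) were more than 2-fold higher besides the other 4, and Cntn1 was more than 2-fold lower (55.1 against 414 CPM). Over 8846 genes in that setting 18.8% were more than 2-fold higher and 63.8% lower. Single nuclei carried much of several sums. On MB17 1 nucleus supplied 96.7% of Cntn3, 94.0% of Cntn5 and 89.1% of Cntn6 counts, and in batch 2 1 nucleus supplied 68.4% of Cntn5 counts. Batch 1 nuclei were also deeper, with a median of 180584 counts against 42747. Marker lists moved between the batches as well. From batch 1 to batch 2 the summed level went from 20.3 to 1850 CPM for choroid plexus (1 of 2 markers at 0 in batch 2), from 65.3 to 1025 CPM for striatal spiny neurons, from 237 to 596 CPM for cortical excitatory neurons and from 1424 to 650 CPM for inhibitory neurons. The part of this in the batch differences was not tested.

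Thinned to 10000 counts per nucleus, 90 nuclei of batch 1 and 126 of batch 2 remained. Chl1 had a count in 90% (exact binomial 95% interval 81.9 to 95.3) and 80.2% (72.1 to 86.7) of them, 96.9% and 97.8% before thinning. Cntnap4 had one in 34.4% (24.7 to 45.2) and 19.8% (13.3 to 27.9). For the other 8 genes the intervals overlapped widely, from Cntn3 with 13.3% and 7.14% to Cntnap2 with 77.8% and 75.4%. Intervals and limits cover counting error only, and SMART-Seq2 reads carry no molecular identifiers.

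FFPE and frozen plate nuclei were set side by side in the table that holds both, with 143 FFPE nuclei (the 134 of batch 2 and 9 deeper ones of 102136 to 4973791 counts) and 137 frozen nuclei. The 9 hold 57.3% of the FFPE counts in this table. Their names carry plate MB14 or MB16, the plates of batch 2, yet they are not among the batch 2 nuclei. Their median was 6789 genes, against 1555 in batch 2. Astrocyte, oligodendrocyte, microglia, endothelial and inhibitory neuron markers were each counted in 100% of the 9. Whether each of the 9 is a single nucleus was not tested. FFPE nuclei are annotated to the left and frozen nuclei to the right hemisphere, so side and preservation cannot be told apart. Pooled CPM was more than 2-fold higher in FFPE for Chl1 (847 against 141), Cntn1 (963 against 224), Cntn6 (418 against 107), Cntnap5a (1387 against 163) and Cntnap5b (528 against 160), and lower by that much for none. Over 11302 genes these shares were 27.7% and 33.8%. For 4 of these genes 1 FFPE nucleus supplied most of the counts, 89.6% of Cntnap5a, 73.7% of Cntn1, 65.9% of Cntn6 and 62.1% of Cntnap5b. With batch 2 nuclei alone Chl1 remained higher, and Cntn3 (20.5 against 88.1 CPM), Cntn4 (157 against 829 CPM) and Cntnap5a (49.7 against 163 CPM) were more than 2-fold lower.

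Shares of nuclei with a count do not rest on single nuclei. After thinning, 135 FFPE and 127 frozen nuclei remained. Chl1 was counted in 80.7% of FFPE nuclei (exact binomial 95% interval 73.1 to 87.0) and 42.5% of frozen nuclei (33.8 to 51.6). Cntn3 was counted in 13.3% (8.10 to 20.3) and 39.4% (30.8 to 48.4), Cntn4 in 29.6% (22.1 to 38.1) and 62.2% (53.2 to 70.7). Cntn5 was counted in 25.9% (18.8 to 34.2) and 53.5% (44.5 to 62.4), Cntnap5a in 20.7% (14.3 to 28.6) and 41.7% (33.0 to 50.8). For these 5 genes the intervals did not overlap, 1 higher and 4 lower in FFPE. Of the 11302 genes 28.4% did not overlap, 0.920% higher and 27.5% lower in FFPE. The intervals are over nuclei of 1 group each, and nuclei are not replicates of a condition.

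For the other 5 genes they did: 35.6% and 26.0% for Cntn6, 51.9% and 57.5% for Cntn1, 74.8% and 72.4% for Cntnap2, 21.5% and 22.05% for Cntnap4 and 32.6% and 30.7% for Cntnap5b. Before thinning the shares were 97.9% and 75.2% for Chl1, 21.0% and 67.9% for Cntn3, 49.0% and 86.9% for Cntn4, 41.3% and 82.5% for Cntn5 and 35.7% and 70.8% for Cntnap5a. Granule neuron markers summed to 1060 CPM in the FFPE and 68.8 CPM in the frozen nuclei of this table, cortical excitatory markers to 354 and 988 CPM, choroid plexus markers to 1436 and 180 CPM and oligodendrocyte precursor markers to 221 and 590 CPM. General neuron markers summed to 5612 and 10802 CPM and inhibitory neuron markers to 938 and 1500 CPM. The part of this in the differences was not tested. The frozen nuclei carry no class annotation.

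In droplet nuclei 8 of the 10 genes were highest in a class that the authors' annotation names ExNeuron (ExNeuron1 to ExNeuron6), Cntn1 was highest in oligodendrocyte precursors (OPC) and Cntnap5b in Endothelial nuclei. Of 1843 genes with at least 283 UMIs, the total of the least counted member, 40.0% were highest in a class of that name. Nuclei were shallow, 235 to 998 UMIs with a median of 325, and 1 library was made, so values are sums over a class with exact Poisson 95% intervals and no test. No doublet caller was run. Without the 5% of nuclei of each class with most UMIs, 9 of the 10 genes were highest in the same class, and Cntnap5b in ExNeuron4. Chl1 was highest in ExNeuron3 at 403 CPM (342 to 471), followed by Endothelial nuclei at 318 CPM (188 to 503) and ExNeuron4 at 291 CPM (233 to 358), whose intervals overlap with it. Its level over all nuclei was 255 CPM from 665 UMIs.

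ExNeuron3 was also highest for Cntn6, at 724 CPM (642 to 813), ahead of ExNeuron2 at 555 CPM. Cntnap4 stood at 529 CPM (383 to 713) in ExNeuron6, 526 CPM (456 to 603) in ExNeuron3 and 436 CPM in ExNeuron4, and these do not differ beyond their intervals. Of the marker lists the granule neuron list was highest in ExNeuron3, at 2081 CPM against 656 to 1516 CPM in the other classes. Cntn3, in contrast, stood at 69.3 CPM (45.7 to 101) there from 27 UMIs, and was highest in ExNeuron5 at 382 CPM (285 to 503) and ExNeuron1 at 261 CPM.

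ExNeuron4 was highest for Cntn5 at 1111 CPM (995 to 1236), Cntn4 at 1094 CPM (980 to 1219), Cntnap5a at 536 CPM (456 to 625) and Cntnap2 at 3627 CPM (3416 to 3848). The class next highest was ExNeuron5 for Cntn5 (555 CPM) and for Cntn4 (870 CPM), Endothelial for Cntnap5a (283 CPM) and ExNeuron3 for Cntnap2 (2645 CPM). The list of inhibitory neuron markers was highest in ExNeuron4 as well, at 3303 CPM, against 2717 CPM in OPC and 2031 CPM in ExNeuron6. The cortical excitatory list was highest in ExNeuron1, at 2943 CPM. The marker lists therefore go against the name excitatory for ExNeuron4, and the class is called by its annotation label only.

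Cntn1 ran from 410 CPM in Microglia to 875 CPM (678 to 1111) in OPC. Cntnap5b had 283 UMIs in all and ranged from 0 in Fibroblast to 177 CPM in Endothelial nuclei. Free RNA was gauged in the 93 Microglia nuclei (median 285 UMIs), a cell type outside the neuronal lineage. There Cntnap2 stood at 1297 CPM, Cntn4 and Cntn5 at 478 CPM, Cntn1 and Cntn6 at 410 CPM, Cntnap4 at 239 CPM, Cntnap5a at 171 CPM and Chl1 and Cntn3 at 137 CPM. In ExNeuron4 the intervals of Cntn4, Cntn5, Cntnap2 and Cntnap5a lay above those of Microglia, and over the 1843 genes the interval in the highest class lay above that of Microglia for 15.9%. For the other 6 genes the interval in the highest class overlapped the wide Microglia interval, which for Chl1 and for Cntn3 ran from 37.2 to 350 CPM on 4 UMIs and for Cntn1 from 212 to 716 CPM on 12. For Chl1 and Cntn6 in ExNeuron3, Cntnap4 in ExNeuron3 and ExNeuron6 and Cntn3 in ExNeuron5, levels are therefore not set apart from the Microglia level. The same holds for Cntn1 in OPC and Cntnap5b in Endothelial nuclei. The Microglia level rests on few UMIs. For Cntn3 the interval in ExNeuron5 lay above that in ExNeuron3, given above. The part of free RNA in these levels was not tested.

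**Figure D5:**
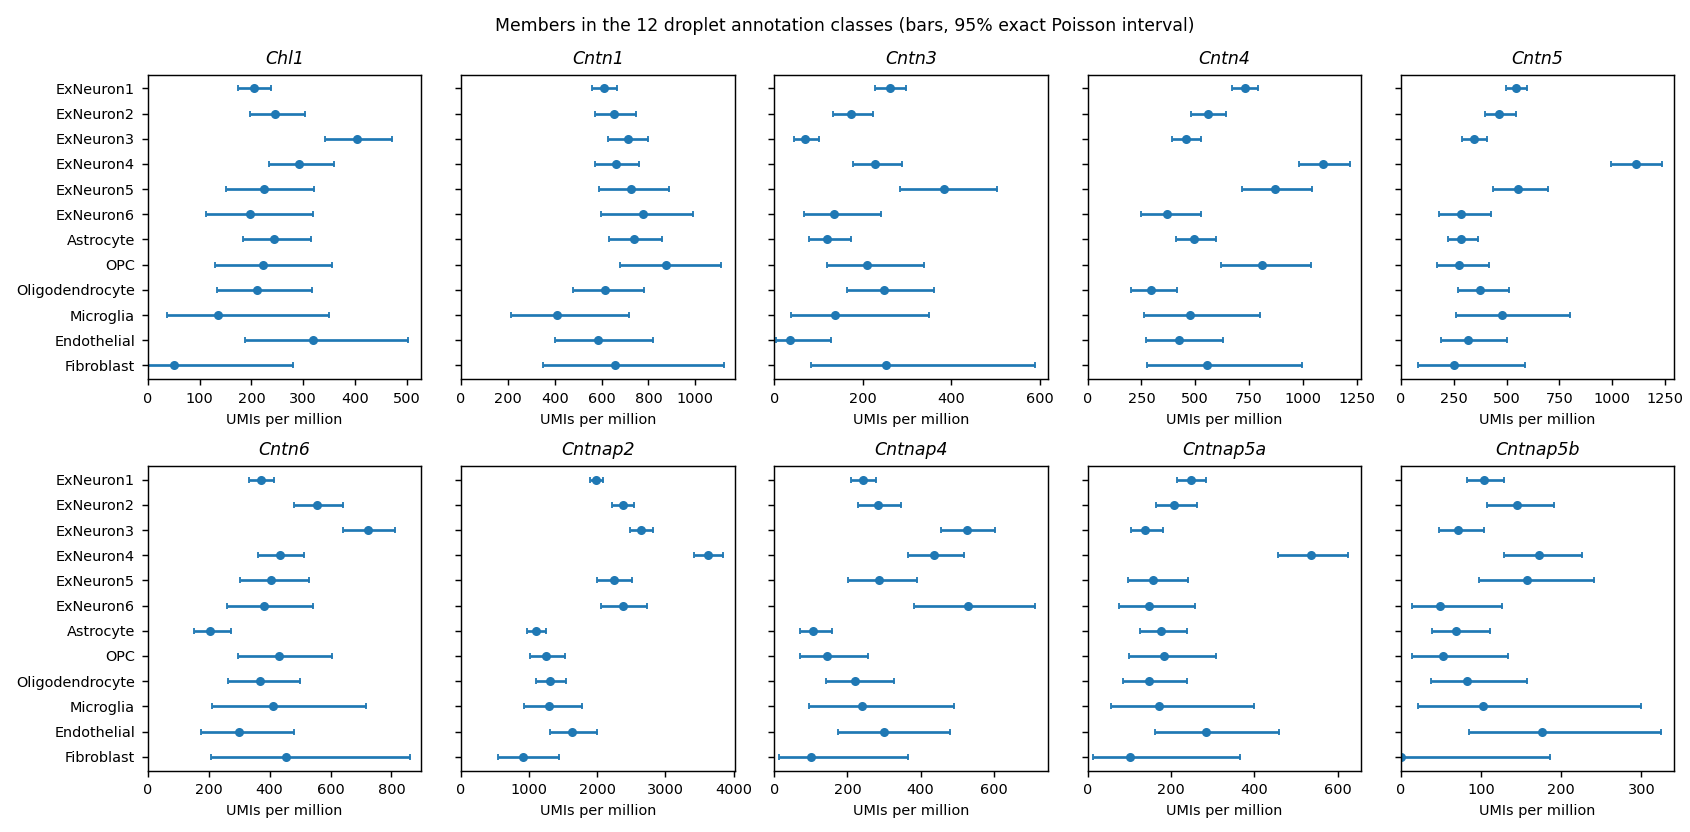
CPM, from UMIs, of the 10 genes in the 12 annotated droplet classes, with exact Poisson 95% intervals for counting error. Cntn4, Cntn5, Cntnap2 and Cntnap5a peak in ExNeuron4, Chl1 and Cntn6 in ExNeuron3.

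The genes most like each member were ranked by Pearson's r of log2(CPM + 10) over the 12 classes, among genes of at least 300 UMIs. The 12 points share 1 library and differ in depth, so r is a description. Nearest to Chl1 were Atp2b3 (0.97), Osbpl9 (0.95) and Ank1 (0.93), to Cntn1 Ptbp2 (0.93), to Cntn3 Pdzrn4 (0.93) and to Cntn4 Egfem1 (0.94). Nearest to Cntn5 was Xkr4 (0.86), to Cntn6 Ntng1 (0.91), to Cntnap2 Aak1 (0.88), to Cntnap4 Epha3 (0.94) and to Cntnap5a Kcnc2 (0.86). Among pairs of members with enough UMIs, the closest were Cntnap2 and Cntnap4 at 0.88 and Cntn5 and Cntnap5a at 0.74.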

How the data were processed

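Bulk wells, plate nuclei and droplet nuclei of mouse brain were analysed from the raw count tables that the authors deposited. Genome builds mm10 and hg19 are named in the submitters' processing notes. Aligner, counting rule and the collapsing of SCRB-seq molecular identifiers: not given in the sources used here. Deposited annotation tables give treatment, nuclei number, plate, hemisphere and, for droplet nuclei, class. Their percent and fraction columns, which the authors deposited per nucleus or well, were not used for any result. Batch 3 of the plates has 0 nuclei in the tables and was not analysed here.

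Mouse counts per well were fitted over all genes with edgeR 4.0.16 (TMM scaling, filterByExpr, quasi-likelihood F test, 2-sided) in R 4.3.3, with Benjamini-Hochberg adjustment over all genes tested and calls at an adjusted p under 0.05. The SE is the log2 fold change divided by the square root of F. FFPE minus frozen is the mean of the 3 treatments minus frozen. DESeq2 1.42.0 served as an alternative. Plate and droplet nuclei were summed per group, in Python 3.11.15 with scipy 1.17.1, with exact binomial or Poisson 95% intervals, and compared at a 2-fold difference with at least 10 CPM in either arm. No doublet caller was run on droplet nuclei. Whether the authors removed doublets is not stated in the labels. The fit was also run on simulated counts, and no result here rests on that run. The limit that a count of 0 allows is 3 counts of the total. Alternatives were a scaling, no filter, nuclei number as a covariate or each number alone, each SMART-Seq2 well left out, thinning and the pseudocount of 10.

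The 10 members, the lists of 7 family genes and 14 partners, the marker lists and the tests were chosen with earlier results of these data known. By the naming rule all members and family genes are given, partners where called, and for each member with at least 300 droplet UMIs the 3 genes with the highest correlation over classes, of which the first is named and for Chl1 all 3.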

Additional observations from a re-analysis of the deposited data

Results flagged for a closer look

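In 11 of 80 groups of 8 SCRB-seq wells (10 genes, 4 treatments, 10 or 100 nuclei) the highest well stood apart from the other 7, with a gap to its neighbour, as a share of the group's range, above Dixon's 95% critical value for 8 samples. Chance gives this in about 1 in 20 groups of normally distributed values. These are low, skewed counts, for which that rate is not known, and a group with 1 count and 7 wells at 0 passes by construction. In wells of 10 nuclei these were Chl1 after heated xylene (834 CPM), Cntn1 after mineral oil (60.91 CPM, the 1 count in that group) and after heated xylene (990.5 CPM), Cntn4 after mineral oil (847.9 CPM) and after room-temperature xylene (1295 CPM) and Cntn5 after heated xylene (414.5 CPM). Cntnap4 after room-temperature xylene (462.1 CPM) and in frozen wells (80.7 CPM) and Cntnap5a after heated xylene (375.4 CPM) were further wells of 10 nuclei. In wells of 100 nuclei they were Cntn4 in frozen wells (1136 CPM) and Cntnap2 after mineral oil (2034 CPM).

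The FFPE to frozen difference of Cntn1 differed between wells of 10 and 100 nuclei by -2.161 on the log2 scale, as reported above, and mineral oil wells of 10 nuclei held 1 Cntn1 count.

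The SCRB-seq table also counts human genes, though the samples are labelled mouse. All human genes together had 134401 CPM (of mouse counts) in FFPE wells and 21200 in frozen wells. Human genes of the same names were counted in FFPE wells at 28.22 (CNTNAP4), 18.81 (CNTNAP2), 15.79 (CNTN5), 10.41 (CNTN4), 9.071 (CNTN1), 5.711 (CNTN3), 1.008 (CNTN6) and 0.6719 (CHL1) CPM. In frozen wells the summed human counts were 4, 5, 3, 2, 0, 1, 0 and 0 in the same order, against 84, 56, 47, 31, 27, 17, 3 and 2 in FFPE wells.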

How the results depend on the processing

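Over alternatives other than leaving out a well, 109 of 130 log2 fold changes of members kept their direction and their side of the threshold, 6 gained a call, 9 lost one and 6 turned direction. Those that turned were Cntnap2 in SCRB-seq FFPE minus frozen (-0.23 with DESeq2 size factors and in DESeq2), Cntn1 there (-0.26, -0.27 and, in wells of 10 nuclei alone, -1.50) and Chl1 between mineral oil and room-temperature xylene in wells of 10 nuclei alone (0.43). Members called between mineral oil and heated xylene were 0 of 5 tested in wells of 10 nuclei alone (106 of 509 genes called) and 2 of 9 in wells of 100 alone (256 of 1953). Between heated and room-temperature xylene 1 was called with the covariate (62 of 1080 genes) and 1 without wells under 20000 mouse counts (97 of 1767), an alternative chosen after seeing the data. Between mineral oil and room-temperature xylene 1 was called with the covariate (201 of 1080). For the interaction with nuclei number, 2 were called with DESeq2 size factors (729 of 2511), and, chosen after seeing the data, 0 without mineral oil wells (123 of 2185) and 2 without room-temperature xylene wells (569 of 1982). In the SMART-Seq2 fit of FFPE minus frozen, members called ranged from 1 (162 of 9864 genes called) to 5 (469 of 10248) with each well left out, and Cntnap2 from -0.11 to 0.52. The cause was not tested.

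Members over 2-fold higher in FFPE than frozen plate nuclei were 2 by the mean of single-nucleus CPM, 1 with batch 2 nuclei alone and 2 with both, and over 2-fold lower 2, 3 and 3. Over all genes these shares were 28.9%, 26.6% and 28.6% higher and 34.6%, 38.7% and 35.9% lower. The last setting was chosen after seeing the data. So was leaving out plate MB18, with which 6 members were over 2-fold higher and 1 lower in batch 1 than in batch 2, against 18.8% and 63.8% of all genes. The gene most like each of 9 members was the same at a pseudocount of 50. Wells of a group are wells of 1 sample, and depth limits low genes: 3 counts in the shallowest mineral oil well are 399 CPM.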
